A study of Rattus norvegicus with 4 samples.

Results

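The annexins described here are 8 members of one family of calcium-regulated membrane-binding proteins: Anxa1, Anxa2, Anxa3, Anxa4, Anxa5, Anxa6, Anxa7 and Anxa11. They were followed through every probe set whose platform annotation names that gene and no other, which gave 14 of the 31099 probe sets on the array. Anxa1, Anxa5, Anxa6 and Anxa11 had 1 probe set each, Anxa2, Anxa4 and Anxa7 had 2 each, and Anxa3 had 4. The tissue was retina of Sprague Dawley rats taken at embryonic day 18 and dissociated with trypsin, and the cells were then raised as neurospheres, free-floating balls of dividing and differentiating cells. One group received epidermal growth factor (EGF) together with medium that endothelial cells had conditioned (labelled ECCM), and the other received EGF alone, so EGF was common to both. Each group had 2 Affymetrix Rat 230 2.0 arrays. Cells were pooled across embryos, 10 in the pool that the series describes, with a further pool for the biological replicate, so no array represents a single animal. The sources used here do not give the culture time or the source of the endothelial cells.

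Annexins bind acidic phospholipids when calcium rises, through a conserved core of repeats, and differ mainly in the N-terminal segment that precedes the core. They organise membrane domains, link membranes to actin, take part in vesicle traffic and help to reseal torn plasma membranes, and several of them work as complexes with small calcium-binding S100 proteins. In the eye, annexin A2 and annexin A5 have been linked to the uptake of shed outer segments by the pigment epithelium.

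The promoters of Anxa1, Anxa2 and Anxa4, the annexins at both ends of the range of differences, are shown from 250 bases before to 50 after the transcription start, from RefSeq on build GRCr8. Of the 8 genes, 7 had an entry (not Anxa6). Anxa1 (chr1:227303683-227303982, minus strand) and Anxa2 (chr8:78986002-78986301, plus strand) had the largest differences between the conditions, and Anxa4 (chr4:120798464-120798763, minus strand) the smallest when each gene is read by its brightest probe set. Capitals mark matches on either strand to the TEAD factor motif GGAATG. They also mark the AP-1 motif TGANTCA on either strand. The GC box GGGCGG is marked likewise on either strand. So is the TATA box, TATAAA, and no 2 of these matches overlapped.
Anxa1: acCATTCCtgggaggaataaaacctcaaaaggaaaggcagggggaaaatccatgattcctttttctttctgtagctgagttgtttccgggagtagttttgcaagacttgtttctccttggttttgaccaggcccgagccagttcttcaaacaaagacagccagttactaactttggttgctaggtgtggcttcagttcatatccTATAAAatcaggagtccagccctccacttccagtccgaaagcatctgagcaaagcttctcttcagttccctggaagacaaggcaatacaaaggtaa
Anxa2: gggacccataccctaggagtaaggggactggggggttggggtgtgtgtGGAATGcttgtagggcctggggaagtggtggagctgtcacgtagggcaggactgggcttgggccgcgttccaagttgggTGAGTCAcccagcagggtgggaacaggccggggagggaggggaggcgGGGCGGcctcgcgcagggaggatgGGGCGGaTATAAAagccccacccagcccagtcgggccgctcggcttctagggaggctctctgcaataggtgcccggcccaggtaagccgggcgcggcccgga
Anxa4: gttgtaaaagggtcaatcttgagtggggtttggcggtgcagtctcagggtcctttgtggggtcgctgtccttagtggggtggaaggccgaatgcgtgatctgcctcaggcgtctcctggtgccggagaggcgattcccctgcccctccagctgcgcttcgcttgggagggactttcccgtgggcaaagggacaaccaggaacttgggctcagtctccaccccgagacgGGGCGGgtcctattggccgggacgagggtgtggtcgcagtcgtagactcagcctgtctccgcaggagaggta
The TATA box stood 46 bases before the start of Anxa1 and 45 before that of Anxa2, and in 0 of the other 5 annexin promoters, against 14.2% of all 33469 promoter windows, where a gene may have several. The same 2 promoters held the TEAD motif (14.2% of all windows), and Anxa2 alone held the AP-1 motif (7.33%). The GC box was in 6 of the 7 (33.1% of all windows) and lacking in Anxa1. The CCAAT box, searched on both strands, was in Anxa4 and Anxa7 (37.5% of all windows). The full palindromic glucocorticoid response element was in 0 of the 7, and in 0.0149% of all windows. These are matches of letters and not binding sites.

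Signals are the authors' log2 values. In the deposited table the arrays were not on one level: the array medians were 6.84 and 6.56 log2 with conditioned medium and 6.03 and 6.25 log2 with EGF alone. The median difference over all 21717 tested probe sets was therefore 0.43 log2 as deposited, -0.01 log2 after quantile normalization, which gives all arrays one distribution, and -0.14 log2 after centring each array on its median. Levels below are as deposited. Differences are conditioned medium minus EGF alone, quantile normalized with limma's standard error (SE) unless called deposited or median-centred. The annexins were chosen with the values of this contrast in view, so what follows on them is a description and carries no p-value. A probe set is called higher or lower here when limma's adjusted p, over all tested probe sets, was under 0.05 in the same direction under all 3 scalings. An adjusted p printed below is that of the quantile normalized fit unless another scaling is named, and it can be larger under the other scalings. Probe sets whose mean over the 4 arrays lay under 4.77 log2, the lowest 30%, were not tested. The dimmest annexin probe set above that limit was Anxa3 1380751_at (mean 5.20 log2) and the brightest below it was Anxa4 1368908_at (4.54 log2). Levels of different probe sets are not compared, since each probe set has its own response.

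With conditioned medium, 6 annexins were higher: Anxa1 by 3.24 log2, Anxa2 by 2.08, Anxa6 by 1.81, Anxa5 by 1.80, Anxa3 by 1.66 (1 of its 4 probe sets) and Anxa7 by 1.18 log2. Anxa4 and Anxa11 were not called. Of the 14 annexin probe sets 10 were tested, and 6 were called higher and 0 lower. Of all tested probe sets, 7.27% were called higher and 1.51% lower. Nothing is read from that contrast, because the annexins were picked from it. The median difference of the 10 tested annexin probe sets was 1.42 log2, and of all 14 it was 0.41 log2. As deposited, both conditioned-medium arrays lay above both EGF arrays in all 14, as they did in 69.4% of all probe sets, tested or not. After quantile normalization the groups were apart in that direction in 9 of the 14, against 27.0% of all probe sets.

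**Figure D1:**
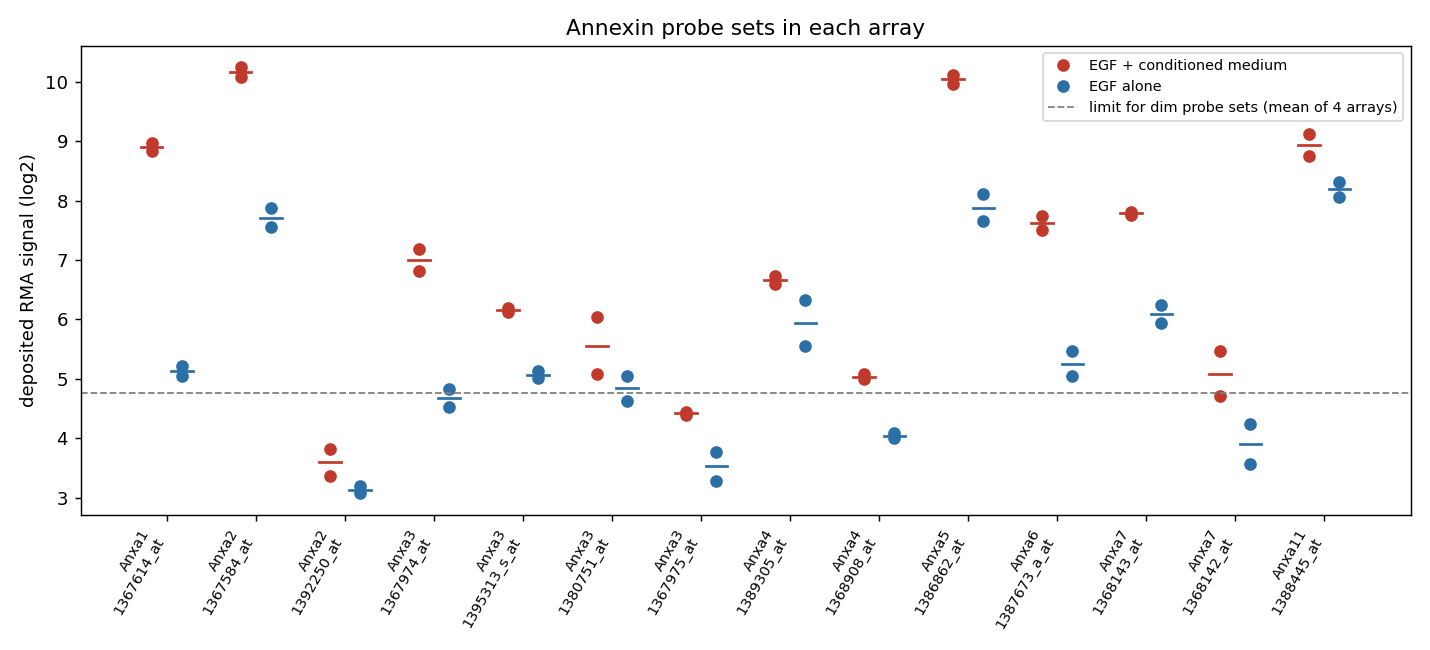
Deposited log2 signal of the 14 annexin probe sets (x axis), with the 2 conditioned-medium arrays (left, red) and the 2 EGF arrays (right, blue) as points and each group's mean as a bar. The dashed line is the 4.77 log2 limit for dim probe sets; Anxa1 shows the widest gap between the group means, 3.77 log2, and the dim Anxa2 probe set the narrowest, 0.46 log2.

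Anxa1, also called lipocortin, binds membranes, is a substrate of the EGF receptor kinase and, once secreted, acts on formyl peptide receptors to restrain inflammation. Its probe set 1367614_at gave 8.96 and 8.84 log2 with conditioned medium, against 5.22 and 5.05 log2 with EGF alone. As deposited, the arrays of each group lay within 0.2 log2 of each other and the groups were far apart. After quantile normalization the conditioned-medium arrays stood at 8.68 and 8.76 log2, and the EGF arrays at 5.71 and 5.25 log2. The difference was 3.24 ± 0.17 log2 (SE), which is 9.42-fold, and 13.6-fold as deposited. Both EGF values lay within 0.5 log2 of the limit for dim probe sets.

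Anxa2 pairs with S100a10 in a heterotetramer at the plasma membrane that links membrane to actin and serves on endothelial cells as a receptor for plasminogen and its activator. Probe set 1367584_at gave 10.24 and 10.08 log2 with conditioned medium, against 7.55 and 7.88 log2 with EGF alone. Here both groups were well above the dim limit and did not overlap, with a difference of 2.08 ± 0.10 log2 (SE), or 4.23-fold. The other Anxa2 probe set, 1392250_at, was at 3.83 and 3.36 log2 with conditioned medium, against 3.08 and 3.20 log2 with EGF alone, below the limit in every array. Its difference of -0.01 ± 0.19 log2 (SE) changed sign with the scaling (0.46 deposited, -0.11 median-centred), and at this signal it shows no difference either way. RefSeq's GRCr8 annotation names 8 pseudogenes after Anxa2 and 4 after Anxa7, and whether their transcripts hybridise to these probe sets was not tested.

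Anxa5 binds exposed phosphatidylserine, the property used to stain dying cells, and forms a two-dimensional lattice on membranes. Its 1386862_at gave 10.12 and 9.96 log2 with conditioned medium, against 7.65 and 8.11 log2 with EGF alone. The difference was 1.80 ± 0.11 log2 (SE), or 3.49-fold, and the groups were separated by at least 1.63 log2 between any 2 arrays after quantile normalization. Across the 4 arrays Anxa5 was the annexin nearest to Anxa2, at a distance of 0.29 log2 between their centred values.

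Anxa6 carries a duplicated annexin core and acts in endocytosis and as a scaffold that brings the Ras inhibitor Rasa1 and protein kinase C alpha to membranes. Its 1387673_a_at gave 7.75 and 7.50 log2 with conditioned medium, against 5.46 and 5.05 log2 with EGF alone. The 2 EGF arrays differed more than the 2 conditioned-medium arrays, and the groups did not overlap. The difference was 1.81 ± 0.22 log2 (SE), or 3.51-fold. It was not called without conditioned-medium replicate 1, where the difference was 1.80 log2.

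Anxa3, described in neutrophils and in microglia of the rat nervous system, had 4 probe sets that gave different answers. Probe set 1367974_at gave 7.19 and 6.81 log2 with conditioned medium, against 4.53 and 4.82 log2 with EGF alone, a difference of 1.66 ± 0.19 log2 (SE), or 3.15-fold. Probe set 1395313_s_at, whose suffix marks probes shared between transcripts, gave 6.19 and 6.12 log2 with conditioned medium, against 5.14 and 5.01 log2 with EGF alone. The deposited gap there was 1.08 log2, but after quantile normalization it was 0.39 ± 0.24 log2 (SE) and was not called. Probe set 1380751_at gave 6.04 and 5.08 log2 with conditioned medium, against 4.64 and 5.05 log2 with EGF alone. One conditioned-medium array stood close to the EGF arrays, and the difference was -0.05 ± 0.28 log2 (SE), with the opposite sign as deposited (0.72 log2) and median-centred (0.15 log2). Probe set 1367975_at was below the limit in every array, at 4.40 and 4.45 log2 with conditioned medium and 3.29 and 3.77 log2 with EGF alone, and differed by 0.23 ± 0.24 log2 (SE). The statement that Anxa3 was higher therefore rests on 1 of 4 probe sets, whose EGF mean (4.68 ± 0.21 log2, SD, n = 2) was itself under the limit.

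Anxa7 and Anxa11 have long N-terminal segments rich in proline and glycine. Anxa7, known as synexin, was described through its fusion of secretory granules, and Anxa11 tethers RNA granules to lysosomes. For Anxa7, probe set 1368143_at gave 7.81 and 7.76 log2 with conditioned medium, against 5.93 and 6.25 log2 with EGF alone, without overlap and with a difference of 1.18 ± 0.14 log2 (SE), or 2.27-fold. The dim Anxa7 probe set 1368142_at gave 5.46 and 4.71 log2 with conditioned medium, against 3.56 and 4.24 log2 with EGF alone, and differed by 0.42 ± 0.26 log2 (SE). It leaned the same way with a wider spread inside both groups. Anxa11, through 1388445_at, gave 9.12 and 8.76 log2 with conditioned medium, against 8.07 and 8.32 log2 with EGF alone. The Anxa11 groups did not overlap, but the difference of 0.38 ± 0.11 log2 (SE) shrank to 0.18 log2 with median-centred arrays, and it was not called under all 3 scalings.

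Anxa4, an annexin of secretory epithelia, showed the smallest difference of the 8 by brightest probe set. Probe set 1389305_at gave 6.73 and 6.59 log2 with conditioned medium, against 5.56 and 6.32 log2 with EGF alone. The 2 EGF arrays differed by more than the second of them did from either conditioned-medium array, and after quantile normalization the groups overlapped, with a difference of 0.12 ± 0.20 log2 (SE). The difference was -0.13 log2 without EGF replicate 1 and 0.36 log2 without EGF replicate 2. The dim 1368908_at gave 4.995 and 5.08 log2 with conditioned medium, against 4.08 and 4.005 log2 with EGF alone. It differed by 0.99 log2 as deposited and by 0.18 ± 0.28 log2 (SE) after quantile normalization.

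**Figure D2:**
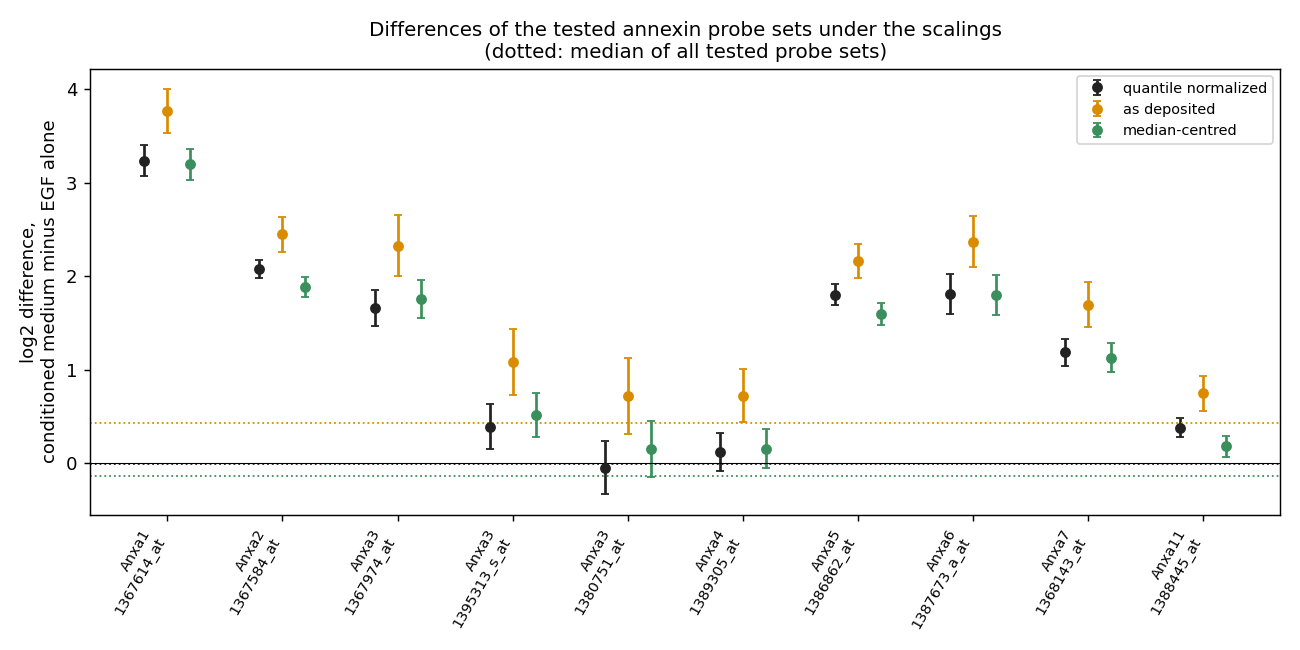
Log2 difference, conditioned medium minus EGF alone, of the 10 tested annexin probe sets under 3 scalings (points, with limma's SE as bars). Dotted lines give the median of all 21717 tested probe sets under each scaling; Anxa1, Anxa2, Anxa5, Anxa6, Anxa7 and 1 Anxa3 probe set stay above 1 log2 under all 3, and the others move towards 0 once the arrays are equalised.

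By their centred profiles over the 4 arrays the annexins fell along a range. Anxa1 stood apart, with Anxa2 as its nearest member at 1.24 log2 and Anxa4 as its farthest at 3.19 log2. Anxa2, Anxa3 and Anxa5 each had a neighbour within 0.34 log2, and Anxa4 and Anxa11 were each other's nearest at 0.45 log2. These distances over 4 arrays describe the profiles only.

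**Figure D3:**
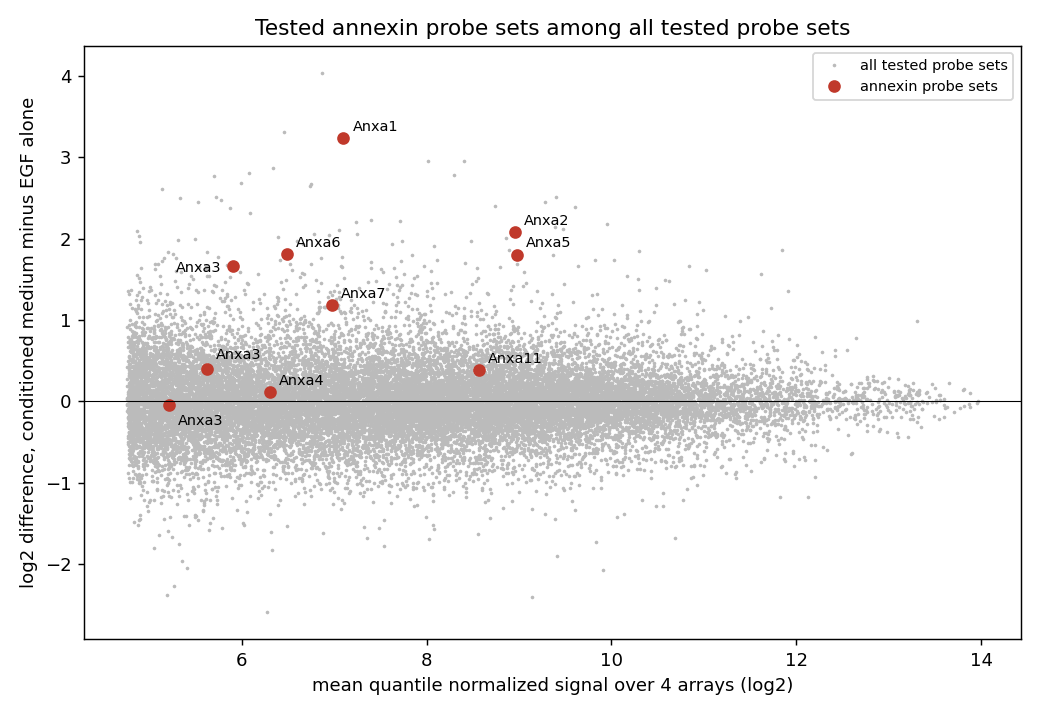
Mean quantile normalized log2 signal over the 4 arrays (x axis) against the log2 difference, conditioned medium minus EGF alone (y axis), for all 21717 tested probe sets (grey) and the 10 tested annexin probe sets (red, named). Anxa1 lies near the top of the plot at 3.24 log2, while Anxa2 and Anxa5 combine a bright signal with differences of 2.08 and 1.80 log2.

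The genes whose profile over the 4 arrays was closest to that of Anxa1, by Euclidean distance between centred quantile normalized values among 11491 genes, were Ets1 (distance 0.11 log2), Myof (0.48), Col1a2 (0.48), Bag3 (0.54) and Tagln (0.66). Ets1, a transcription factor, gave 8.37 and 8.25 log2 with conditioned medium, against 4.37 and 4.41 log2 with EGF alone. Myof, a calcium-binding ferlin of membrane repair, gave 7.47 and 7.17 log2 with conditioned medium, against 3.97 and 3.89 log2 with EGF alone. With 4 arrays in 2 groups, this distance mainly compares the sizes of the differences. With EGF alone, Bag3 gave 4.26 and 4.73 log2 and Tagln 4.08 and 4.41 log2. Both EGF values of Ets1, Myof, Bag3 and Tagln lay under the limit for dim probe sets. These genes were tested only through their conditioned-medium arrays, and signal near background limits the sizes of their differences. Col1a2 lay above the limit, at 6.54 and 6.82 log2 with EGF alone.

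The annexins have known partners, and 22 symbols of binding partners and regulators were listed (Slc9a3r1 and Nherf1 name the same gene), 18 of them on the array under a single symbol. Fpr1, Fpr2 and Ahnak were not analysed here. The list was written with earlier results of these data known, so its counts and p-values are a description. Read by the brightest probe set, 6 of the 17 tested rose and 0 fell, while over all 11491 genes 8.52% were called higher and 1.78% lower. The median difference of the 17 was 0.31 log2, against 0.00 log2 for all genes. The 6 were the 4 S100 partners, sorcin and cytosolic phospholipase A2. The count was 3 without conditioned-medium replicate 2, where S100a6, Sri and Pla2g4a were lost.

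S100a10, which joins 2 Anxa2 molecules, gave 11.58 log2 in both conditioned-medium arrays, against 9.95 and 10.07 log2 with EGF alone. It rose by 1.25 ± 0.08 log2 (SE; limma adjusted p = 8.53e-06). S100a11, the partner of Anxa1, gave 9.22 and 9.01 log2 with conditioned medium, against 7.32 and 7.42 log2 with EGF alone, and rose by 1.35 ± 0.10 log2 (limma adjusted p = 2.50e-05). For both of these partners, the 2 conditioned-medium arrays lay above the 2 EGF arrays, as deposited and after quantile normalization. The same held for 69.4% of all probe sets as deposited and 27.0% after quantile normalization, tested or not. S100a4, which binds Anxa2, gave 10.20 and 9.73 log2 with conditioned medium, against 8.01 and 8.30 log2 with EGF alone, and rose by 1.46 ± 0.11 log2 (limma adjusted p = 2.86e-05). S100a6, which binds Anxa11 and Anxa2, gave 6.78 log2 in both conditioned-medium arrays, against 4.64 and 4.96 log2 with EGF alone, and rose by 1.29 ± 0.21 log2 (limma adjusted p = 1.46e-03).

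Sri, or sorcin, a calcium sensor that binds the N-terminus of Anxa7, rose by 0.65 ± 0.08 log2 (limma adjusted p = 2.79e-04), and its other probe set by 0.60 log2. Median-centred, both Sri probe sets rose by 0.41 log2 (limma adjusted p = 0.011 and 0.020). The Sri call was also lost without EGF replicate 2 and without the intensity trend. Pla2g4a, the cytosolic phospholipase A2 that Anxa1 was first known to inhibit, rose by 0.75 ± 0.13 log2 (limma adjusted p = 2.59e-03), and was also lost without conditioned-medium replicate 1. Among those not called by their brightest probe set, Pdcd6, also known as ALG-2 and bound by Anxa7 and Anxa11, differed by 0.25 ± 0.08 log2 as quantile normalized and 0.00 log2 as median-centred. Plat, the tissue plasminogen activator that the Anxa2 complex binds, differed by 0.64 ± 0.24 log2 (SE), with levels of 9.34 and 9.21 log2 with conditioned medium, against 8.69 and 7.84 log2 with EGF alone. Egfr differed by 0.31 ± 0.10 log2, while another of its 3 probe sets was called higher, at 0.83 log2. The partners of Anxa6, Rasa1 (0.19 ± 0.10 log2) and Prkca (-0.19 ± 0.20 log2), were not called. Neither were Src, the kinase that phosphorylates Anxa2 (-0.05 ± 0.10 log2), Trpm7, a channel kinase that phosphorylates Anxa1 (0.35 ± 0.13 log2), Ctsb (0.08 ± 0.09 log2), Nherf1 (0.21 ± 0.08 log2), Grb2 (0.11 ± 0.09 log2) and Tgm2 (-0.35 ± 0.24 log2). Plg, which encodes plasminogen, was too dim to be tested.

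**Figure D4:**
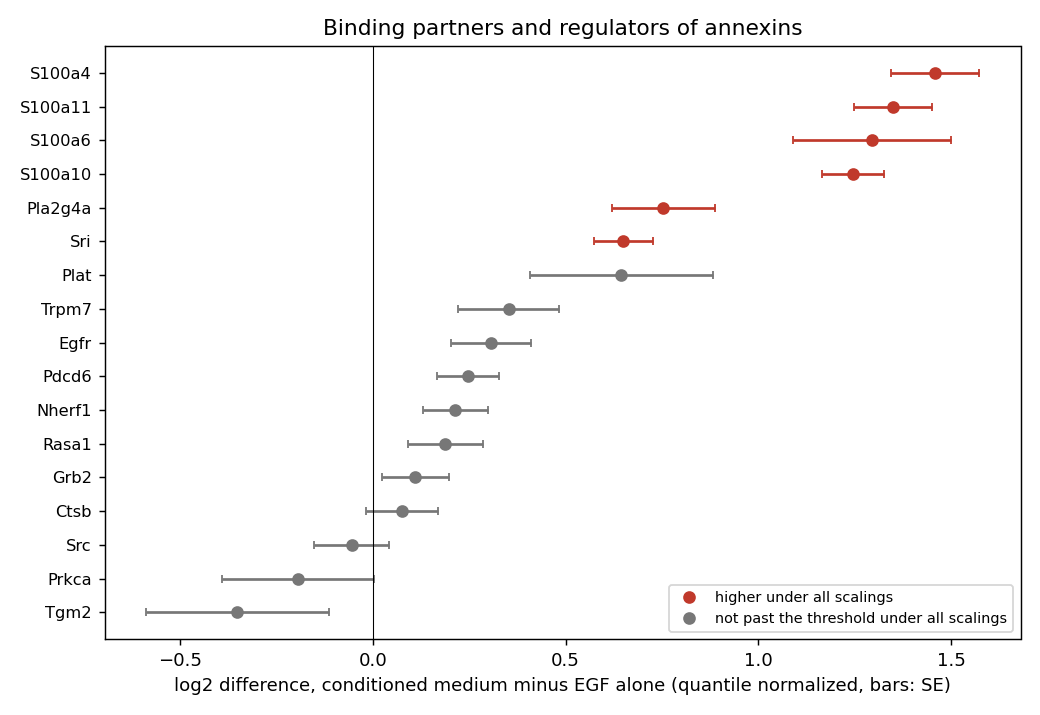
Log2 difference, conditioned medium minus EGF alone (x axis, quantile normalized, bars are SE), of the 17 tested binding partners and regulators of annexins, by brightest probe set. The 4 S100 genes lie between 1.25 and 1.46 log2, Pla2g4a and Sri at 0.75 and 0.65 log2, and the other 11, in grey, did not pass under all 3 scalings.

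Annexins gather at wounds of the plasma membrane with ferlins, calpains, EHD proteins and ESCRT factors. The list of membrane repair genes was likewise written with earlier results of these data known, so its counts and p-values are a description. Of 20 genes of membrane repair on the array, 15 were tested, and 4 rose and 0 fell (8.52% and 1.78% of all genes), with a median difference of 0.25 log2 (0.00 log2 for all genes). Besides S100a10 and S100a11 these were Myof (2.77 ± 0.23 log2, limma adjusted p = 4.10e-05) and the membrane-tubulating ATPase Ehd4 (1.07 ± 0.11 log2, limma adjusted p = 1.49e-04). Myof averaged 3.93 log2 with EGF alone, below the 4.77 log2 limit, and was tested only through its conditioned-medium arrays. The other 11 did not pass under all 3 scalings, among them the ferlin Dysf, at -0.07 ± 0.26 log2. Anxa1 is a classical glucocorticoid-induced gene, so the glucocorticoid response was read beside it. Of 11 tested genes of that list 1 rose and 1 fell, with a median of 0.02 log2, and with 8.52% of all genes higher and 1.78% lower nothing is read from these counts. Errfi1, a feedback inhibitor of the EGF receptor, rose by 0.63 ± 0.11 log2 (limma adjusted p = 2.70e-03), and Klf9 fell by 0.91 ± 0.11 log2 (limma adjusted p = 2.99e-04). Median-centred, Errfi1 rose by 0.41 log2 (limma adjusted p = 0.019). Errfi1 was lost without EGF replicate 1 or either conditioned-medium array, and without the intensity trend. Klf9 was lost without EGF replicate 2 or conditioned-medium replicate 1. The receptor itself, Nr3c1, differed by -0.32 ± 0.11 log2, and the targets Fkbp5 and Tsc22d3 by 0.02 ± 0.09 and -0.26 ± 0.09 log2. Sgk1 in the same list differed by 0.44 ± 0.12 log2. None of these was called. Of the 11 tested genes of the list, 6 had positive and 5 negative differences.

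The rest of the family was represented by Anxa8 and Anxa9, all of whose probe sets were too dim to be tested. Anxa8 was at 4.91 and 4.16 log2 with conditioned medium and 3.79 and 4.12 log2 with EGF alone, a difference of -0.16 ± 0.24 log2 (SE) that was 0.58 log2 as deposited and 0.01 log2 median-centred. The brighter Anxa9 probe set, 1381223_at, overlapped between the groups, at 5.61 and 4.50 log2 with conditioned medium and 3.56 and 4.62 log2 with EGF alone. Anxa10 and Anxa13 had no probe set under a single symbol and were not analysed here.

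Markers of other cells and of RNA quality moved in the same arrays as the annexins. For the labelled retina, the transcription factor Pax6 was at 12.9 and 12.7 log2 with conditioned medium and 12.6 and 12.8 log2 with EGF alone, and Otx2 and Rax were above 11 log2 in every array. Over all genes 8.52% were called higher and 1.78% lower, the background for the counts that follow. Of 10 retinal markers 1, Six6, was called higher (0.68 log2) and 3 lower. The 3 were genes of photoreceptors, Pdc (-2.07 log2), Sag (-1.43 log2) and Crx (-1.12 log2), and recoverin, Rcvrn (-1.45 log2), was not called under all 3 scalings. The retinal markers' summed linear signal was 25169 to 26338 with conditioned medium and 29089 to 29119 with EGF alone. Of 9 tested mesenchymal markers 8 were higher, with sums of 2350 to 2416 with conditioned medium and 775 to 909 with EGF alone (4 more, Lum, Cspg4, Rgs5 and Dcn, were too dim to be tested). Tagln and Twist1, 2 of the 8, had EGF means under the limit. Of 11 microglia and leukocyte markers 6 were higher, with sums of 1288 in both conditioned-medium arrays and 665 to 735 with EGF alone (C1qb, Itgam and P2ry12 too dim). Of those 6, Ptprc, Aif1 and C1qc had EGF means under the limit and passed it through the conditioned-medium arrays. Of 9 glial markers 4 were higher (28850 to 29858 against 20459 to 22301 with EGF alone), with Kcnj10 too dim. Most of that gap was Vim. Without Vim the sum was 15012.2 to 15160.9 with conditioned medium and 13856.3 to 14326.5 with EGF alone. Of the 9, 4 had negative differences, Rlbp1 (-0.70 log2), Aqp4 (-0.57 log2), Fabp7 (-0.29 log2) and Gfap (-0.12 log2), none of them called. Of 7 lens markers 3 were higher (842 to 881 against 466 to 468 with EGF alone). Crygs, Lim2, Cryba1, Crybb2 and Mip were too dim, and the EGF mean of Crybb1, 1 of the 3, was under the limit. Of 6 endothelial markers 1, Esam, was higher, while Pecam1, Tie1, Tek, Emcn and Erg were too dim. The endothelial sum (5816 to 5880 against 4381 to 4533 with EGF alone) was mostly Kdr, which was not called and which retinal progenitors also express, and without it the sum was 431 to 448 with conditioned medium and 343 to 437 with EGF alone. Of 5 pigment epithelium markers 1, Mitf, was higher (0.65 log2), with Rpe65, Tyr, Tyrp1 and Lrat too dim. The sum (1250 to 1282 against 1813 to 1892 with EGF alone) was mostly Rlbp1, which is also in the glial list, and neither Rlbp1 (-0.70 log2) nor Dct (-0.78 log2) was called. For actin, the control probe set at the 3' end exceeded the one at the 5' end by 1.54 and 1.37 log2 with conditioned medium and by 1.99 and 2.08 log2 with EGF alone, a gap that widens as RNA degrades. For GAPDH the gap was smaller, at 0.19 and 0.18 log2 with conditioned medium and 0.31 and 0.30 log2 with EGF alone. The part of these in the annexin differences was not tested, and in bulk RNA more cells of a type cannot be told apart from more RNA per cell.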

How the data were processed

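RNA of 4 neurosphere cultures, 2 with EGF and conditioned medium and 2 with EGF alone, was measured on 1-colour arrays. Per the labels, the authors ran RMA through GenePattern and deposited its log2 signals. No version or options of RMA are recorded in the labels. Deposited values were stepped, with 2738 to 3291 distinct values per array. Their unequal medians led to 3 scalings: quantile normalized (for effect sizes), deposited and median-centred, each over all 31099 probe sets. Symbols came from the platform annotation (20832 probe sets with 1 symbol, 436 with several, 9831 with none). For all 14 annexin probe sets the annotated symbol was RefSeq's symbol for the same gene identifier. Without 57 controls and the dimmest 30%, 21717 probe sets entered the limma fit (version 3.58.1, R 4.3.3; lmFit and trended eBayes). P-values were two-sided and Benjamini-Hochberg adjusted over all tested, and a call needed an adjusted p under 0.05 under all 3 scalings. The prior degrees of freedom were 7.97 (quantile) and 9.60 (median-centred) beside 2 residual ones, and unlimited for deposited values, where the spread came wholly from the trend. An exact permutation test of 2 against 2 arrays cannot go below p = 0.333 (two-sided). The number of arrays limits the precision.

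The annexins, the lists and the call rule were chosen with earlier results of these data known. Named were every annexin probe set, every partner or regulator, up to 4 called genes of the repair and glucocorticoid lists by smallest p, and the 5 genes nearest Anxa1. The markers named come from the marker lists. Dysf, Nr3c1, Fkbp5, Tsc22d3, Sgk1, the further Egfr probe set and the single markers given with differences were named after their values were seen. Lists were read by each gene's brightest probe set. Arrays with the same number deviated from their group means with a correlation of -0.05 (quantile normalized) and -0.12 (deposited). With 2 arrays per group, the deviations of the second pair mirror those of the first. This correlation therefore cannot tell whether the numbers pair the arrays, and pairing was left out of the main fit. The procedure was run on simulated data with independent noise and no shift in level between arrays, so that run does not cover the unequal medians found here. Alternatives were each scaling alone, the replicate as a block, no filter, 1 probe set per gene, no intensity trend and each array left out.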

Additional observations from a re-analysis of the deposited data

How the results depend on the processing

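The calls of Anxa1, Anxa2, Anxa5, Anxa7 and Anxa3 1367974_at held under all 12 alternatives, and that of Anxa6 under 11 (the exception is given above). With each scaling alone no call could be lost, because a call already needed all 3 scalings. The annexins were picked from this contrast, so that these calls held is a description only. With deposited values alone the annexin count was 9, against 6 as reported, where 8324 of all 21717 tested probe sets were higher. Each scaling alone could only add calls. In the alternatives that kept all 4 arrays, 0 annexins were lower. With an array left out, the count over the whole table was 530 to 1254 higher (1579 with all arrays) and 76 to 152 lower (328 with all arrays); partners numbered 3 to 7 higher, membrane repair genes 4, and glucocorticoid genes 0 to 1 higher and 0 to 1 lower. Quantile normalized values alone gave 2734 higher and 2803 lower probe sets, 8 higher and 1 lower repair genes, and 2 higher and 2 lower glucocorticoid genes. Deposited values alone gave 8324 higher probe sets and 14 partners, 10 repair and 3 glucocorticoid genes higher. Median-centred arrays alone gave 5567 lower probe sets, and 3 repair and 4 glucocorticoid genes lower. One probe set per gene gave 1048 higher and 205 lower. Without the intensity trend, 210 were lower and 0 glucocorticoid genes higher. With the replicate block, 45 probe sets and 0 glucocorticoid genes were lower, the glucocorticoid gene lost was Klf9, and no annexin, partner or repair call was lost or gained. With the pairing crossed, an alternative chosen after seeing the data, 717 probe sets and 2 glucocorticoid genes were lower. The causes were not tested. Signal near background limits the sizes for Anxa1, Anxa3 and Anxa6, whose EGF values lay close to or under the dim limit.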
